A study of Mus musculus with 12 samples.

Results

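The cytosolic ribosomal protein genes were read out in bone marrow-derived macrophages of C57BL/6 mice, the macrophages that grow from cultured marrow, 1 h after allergen of the house dust mite (HDM), or vehicle alone, was added. Members are the rows of the count table whose symbol starts with Rpl or Rps and a digit, or is Rplp0, Rplp1, Rplp2 or Rpsa, without processed pseudogenes (symbols with -ps) and without the S6 kinases. This gave 94 of the 50559 rows. They comprise 46 canonical large subunit genes, 31 canonical small subunit genes, 12 paralogues or retrogenes, 4 other gene models, and Rps19bp1, which meets the symbol rule but encodes a protein that binds Rps19 and is no part of the ribosome. The 2 groups, HDM and vehicle, hold 6 libraries each, numbered 1 to 6, and no genotype, sex or age is given for either. The labels do not say whether the libraries came from separate mice or cultures, so a p-value here reflects variation among the libraries, which could be technical only. In bulk RNA, fewer cells of a type and less RNA per cell cannot be told apart.

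The cytosolic ribosome is built from a small subunit, which reads the mRNA, and a large subunit, which joins the amino acids, and each protein named here is in general present once per subunit, apart from the paired P1 and P2 proteins of the stalk. The mRNAs of these proteins belong to the TOP class: they begin with a run of pyrimidines (C and U), which lets mTOR signalling, through LARP1 and the 4E-binding proteins, turn their translation up or down while the amount of mRNA stays much the same. They are among the most abundant and longest-lived mRNAs of the cell, and several serve as reference genes in quantitative PCR. Counts of mRNA do not measure their translation.

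Start sites of 8 members show the pyrimidine run and how it varies between genes that are described below. Each line gives 30 bases of the sense strand, 10 before and 20 from the annotated start on, taken from RefSeq (GRCm38.p6), with runs of at least 8 pyrimidines in capitals. Rpl14 and Rps27 carry such a run at the start, and Rps6 and the reference gene Rpl13a at or just after it. The windows of Rps4x and Rps3a1 hold no run of that length. A shorter run, or one at a start that is not annotated, would not be marked. The lack of a marked run therefore does not place a gene outside the TOP class.
Rpl14: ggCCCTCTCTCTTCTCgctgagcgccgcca
Rps27: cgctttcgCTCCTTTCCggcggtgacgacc
Rps6: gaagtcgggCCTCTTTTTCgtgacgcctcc
Rpl13a: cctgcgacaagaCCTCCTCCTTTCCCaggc
Rpl39: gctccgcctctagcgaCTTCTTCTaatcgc
Rpl22l1: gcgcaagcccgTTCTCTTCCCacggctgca
Rps4x: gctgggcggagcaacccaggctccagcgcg
Rps3a1: gccggaagggcgaaagagcaagggtcacgt
The windows lie at chr9:120571507-120571536 on the plus strand (Rpl14), chr3:90213629-90213658 on the minus strand (Rps27), chr4:86857348-86857377 on the minus strand (Rps6), chr7:45128726-45128755 on the minus strand (Rpl13a), chrX:37085203-37085232 on the minus strand (Rpl39), chr3:28805498-28805527 on the plus strand (Rpl22l1), chrX:102189372-102189401 on the minus strand (Rps4x) and chr3:86142649-86142678 on the minus strand (Rps3a1). Each spans the annotated start of its own gene.

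RefSeq promoters were found for 69 of the 94 members, 57 of them canonical, and for 10305 other tested genes. A pyrimidine run of at least 8 bases lay between 20 bases before and 30 bases after a start in 32 of 57 canonical genes (56.1%) and in 21.8% of the other genes. A purine run of that length, the same run on the opposite strand, was found in 6 of 57 (10.5%) and in 24.0%. In the same window and on the sense strand, CTCTTT stood in 11 canonical genes (19.3%, against 1.92% of the others), CTTTCC in 11 (19.3%, against 2.75%) and CTTCC, which can overlap CTTTCC and the runs, in 18 (31.6%, against 15.7%). On the opposite strand CTCTTT stood in 1.75% of the canonical genes and 1.46% of the others, CTTTCC in none of the 57 and 2.601%, and CTTCC in 21.1% and 18.3%.

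In the whole 300-base promoters, both strands read, the ETS motif CCGGAAG (the GABP type) was found in 42.1% of the canonical genes and 20.1% of the others. The YY1 core AAGATGG was found in 15.8% and 8.60%, and the CRE TGACGTCA in 8.77% and 3.50%. The Sp1 box GGGCGG was found in 61.4% and 66.2%, and TATAAA in 10.5% and 8.95%. Of the motifs of factors that act early in activated macrophages, the NF-kB consensus was in 0 of 57 promoters (0.611% of the others) and the AP-1 site TGANTCA in 2 (3.51%, against 6.56%). A gene counts here when any of its annotated starts has the motif. These shares describe letters in a window and are no evidence of binding.

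Counted reads per library ranged from 19.7 M to 119.7 M. All 11 macrophage markers were present, with a summed level of 18792 to 22518 CPM (counts per M reads) with HDM and 17724 to 22214 with vehicle, and 1 of them, Cd14, was called higher (1189 against 507 CPM, edgeR adjusted p = 0.000162). Markers of lymphocytes summed to at most 0.673 CPM and those of mast cells and basophils to at most 0.0539, with Trac, Mcpt8, Tpsb2, Ms4a2, Prss34 and the haemoglobin genes at 0 reads. The neutrophil list (43.0 to 114.1 CPM) came almost wholly from Mmp8, with Retnlg at 0, and the megakaryocyte list (97.4 to 197.3 CPM) from Pf4. The stroma and endothelium list summed to 2.05 to 5.06 CPM with HDM and 2.90 to 6.69 with vehicle. Of its 4 tested genes edgeR called 0 without the block (1 at an unadjusted p under 0.05) and 2 lower with it, Col1a1 (0.449 against 1.11 CPM) and Col1a2 (0.467 against 0.931), and the part of these cells in the results was not tested. The libraries numbered 5 and 6 of both treatments stand apart from the other 8, and Vehicle 1 stands apart in several ribosomal protein genes. Values without them are therefore given for the members as a set, and for some but not all of the genes described.

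Ribosomal protein mRNA took 2.59% to 2.91% of the counted reads, lowest in Vehicle 6 and highest in Vehicle 1. With HDM the share ranged from 2.595% to 2.72% (median 2.65%), and with vehicle from 2.594% to 2.91% (median 2.77%), so the groups overlapped. The means were 2.65% ± 0.0446 with HDM and 2.75% ± 0.128 with vehicle (SD, n = 6), a difference of -0.0974 percentage points, or -0.0650 without Vehicle 1. In numbers 1 to 4 the 2 groups did not overlap, with 2.64% to 2.72% with HDM and 2.76% to 2.91% with vehicle. In numbers 5 and 6 they lay together, at 2.595% and 2.61% with HDM and 2.596% and 2.594% with vehicle. The genes called by edgeR in these same libraries took 3.64% to 4.07% of the reads with HDM and 2.64% to 2.85% with vehicle. They were chosen for a difference between the groups, so this gap follows in part from the choice. With those genes left out of the total the difference in share was -0.0696 points.

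**Figure D1:**
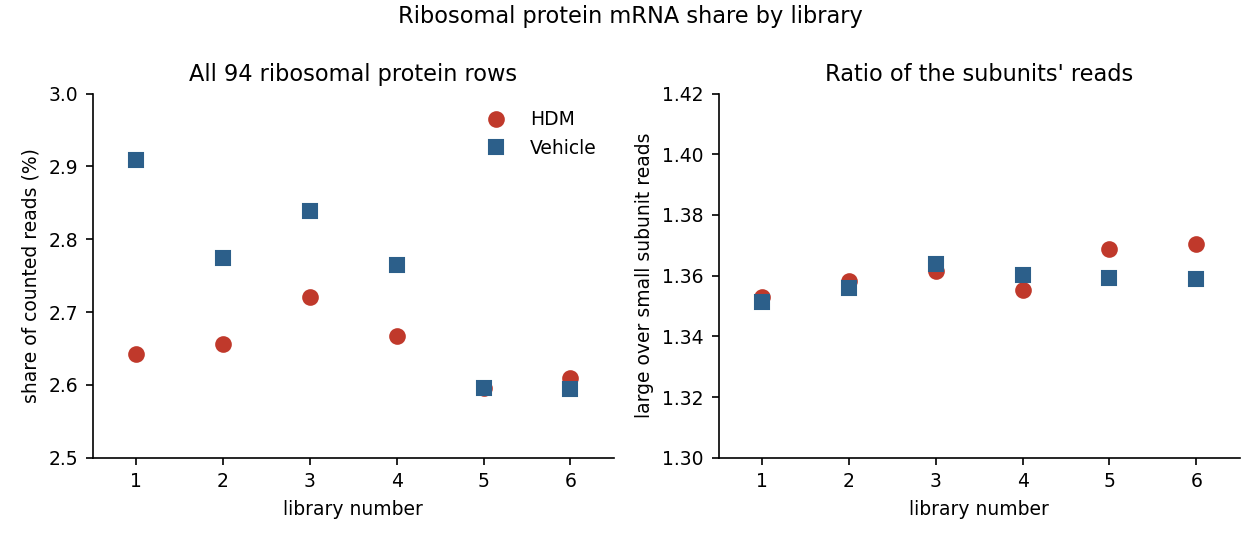
Left: share of each library's counted reads that fell on the 94 ribosomal protein rows (vertical axis, percent, starting at 2.5) by library number, HDM as red circles and vehicle as blue squares, 1 point per library. Right: reads of the 46 canonical large subunit genes divided by those of the 31 canonical small subunit genes. In numbers 1 to 4 each vehicle share lies above the HDM share of that number, in numbers 5 and 6 the points nearly coincide, and the subunit ratio stays between 1.35 and 1.37.

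The subunits moved together across libraries. Large subunit genes held 1.48% to 1.65% of the reads and small subunit genes 1.08% to 1.22%, and the ratio of the 2 ranged only from 1.351 to 1.370. Mean ratios were 1.361 ± 0.00719 with HDM and 1.358 ± 0.00426 with vehicle (SD, n = 6). The -ps pseudogenes, 321 rows of which 224 had reads, took 0.00591% to 0.00843% of the reads, with the highest share in Vehicle 1, which also held the highest member share. Near-identical copies can take or lose reads of their parent genes, and the part this played in any value here was not tested. The largest were Rps6-ps4 with 4729 reads and Rpl19-ps11 with 3209, against 117956 reads on Rps6 and 281006 on Rpl19. The mitochondrial ribosomal proteins, 84 genes of another ribosome, took 0.217% to 0.224% with HDM and 0.219% to 0.232% with vehicle and were lower with HDM in 6 of 6 numbers.

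Levels differed among members by far more than they did between treatments. Per kb of the principal transcript in GENCODE vM21, 67 of the 77 canonical genes lay within 2-fold of their median of 405 CPM per kb, with 7 below and 3 above. The 3 above were Rplp1, a P protein of the stalk that recruits elongation factors (1490.1 CPM per kb), Rps12 (1003 CPM per kb) and Rpl32 (843 CPM per kb). Small subunit genes had a median of 519 CPM per kb and large subunit genes one of 378. These levels depend on the transcript chosen: Rps20, for which the principal transcript is 3706 bases long, stood at 81.0 CPM per kb. In CPM, without regard to length, Rpl4 (1151), Rplp0 (1089), Rpsa (967), Rps2 (782) and Rplp1 (744) were highest.

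Rpl28 is the exception. This large subunit gene had 236 reads over the 12 libraries, a level of 0.580 CPM per kb against the canonical median of 405. Rpl28 ranged from 0.195 to 0.602 CPM with HDM (median 0.434) and from 0.380 to 0.725 with vehicle (median 0.443), and the groups overlapped. The annotation behind the counts is not given in the sources used here, and whether reads of Rpl28 were assigned elsewhere was not tested.

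None of the 89 members that passed the filter on low counts was called as changed by HDM at an adjusted p under 0.05 (edgeR's quasi-likelihood test, Benjamini-Hochberg over 13530 genes). Over all tested genes 5.37% were called, 2.9% as higher and 2.47% as lower. At an unadjusted p under 0.05, 2 members were found (Rpl10a and Rpl14), against 14% of all tested genes, and DESeq2 and limma-voom also called 0 members at an adjusted p under 0.05. The HDM and vehicle libraries overlapped for every tested member, while 4.39% of all tested genes had groups that did not overlap. The 77 canonical genes all passed the filter. The members that did not were Rpl3l (42 reads), Rpl32l (91), Rps12l1 (16), and Rpl10l and Rps23rg1 with 0 reads.

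The intervals were narrow. For 74 of 77 canonical genes the 95% interval of the fold change lay within 1.25-fold in both directions, and the largest standard error among the canonical genes other than Rpl28 was 0.10 on the log2 scale. The 3 exceptions were Rpl28 (-0.77 to 0.30), Rps28 (-0.35 to 0.07) and Rps29 (-0.33 to 0.08). Fold changes leaned below 0 in 77 of 89 members and 68 of 77 canonical genes, against 52.5% of all tested genes, with a median log2 fold change of -0.038 beside -0.0048 for all tested genes. Without Vehicle 1 the members' median was -0.021, and the canonical median was -0.019 with 63 of 77 below 0, beside -0.0025 for all tested genes. For 2706 other genes in the range of CPM of the canonical genes other than Rpl28, the median was 0.00060 and 49.5% lay below 0. Members share the deviations of the libraries they are counted in, so these counts are not independent observations. Under the scaling alternatives (upper-quartile factors, total library size, TMM without the members, DESeq2 size factors) between 67 and 73 of the 77 lay below 0.

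**Figure D2:**
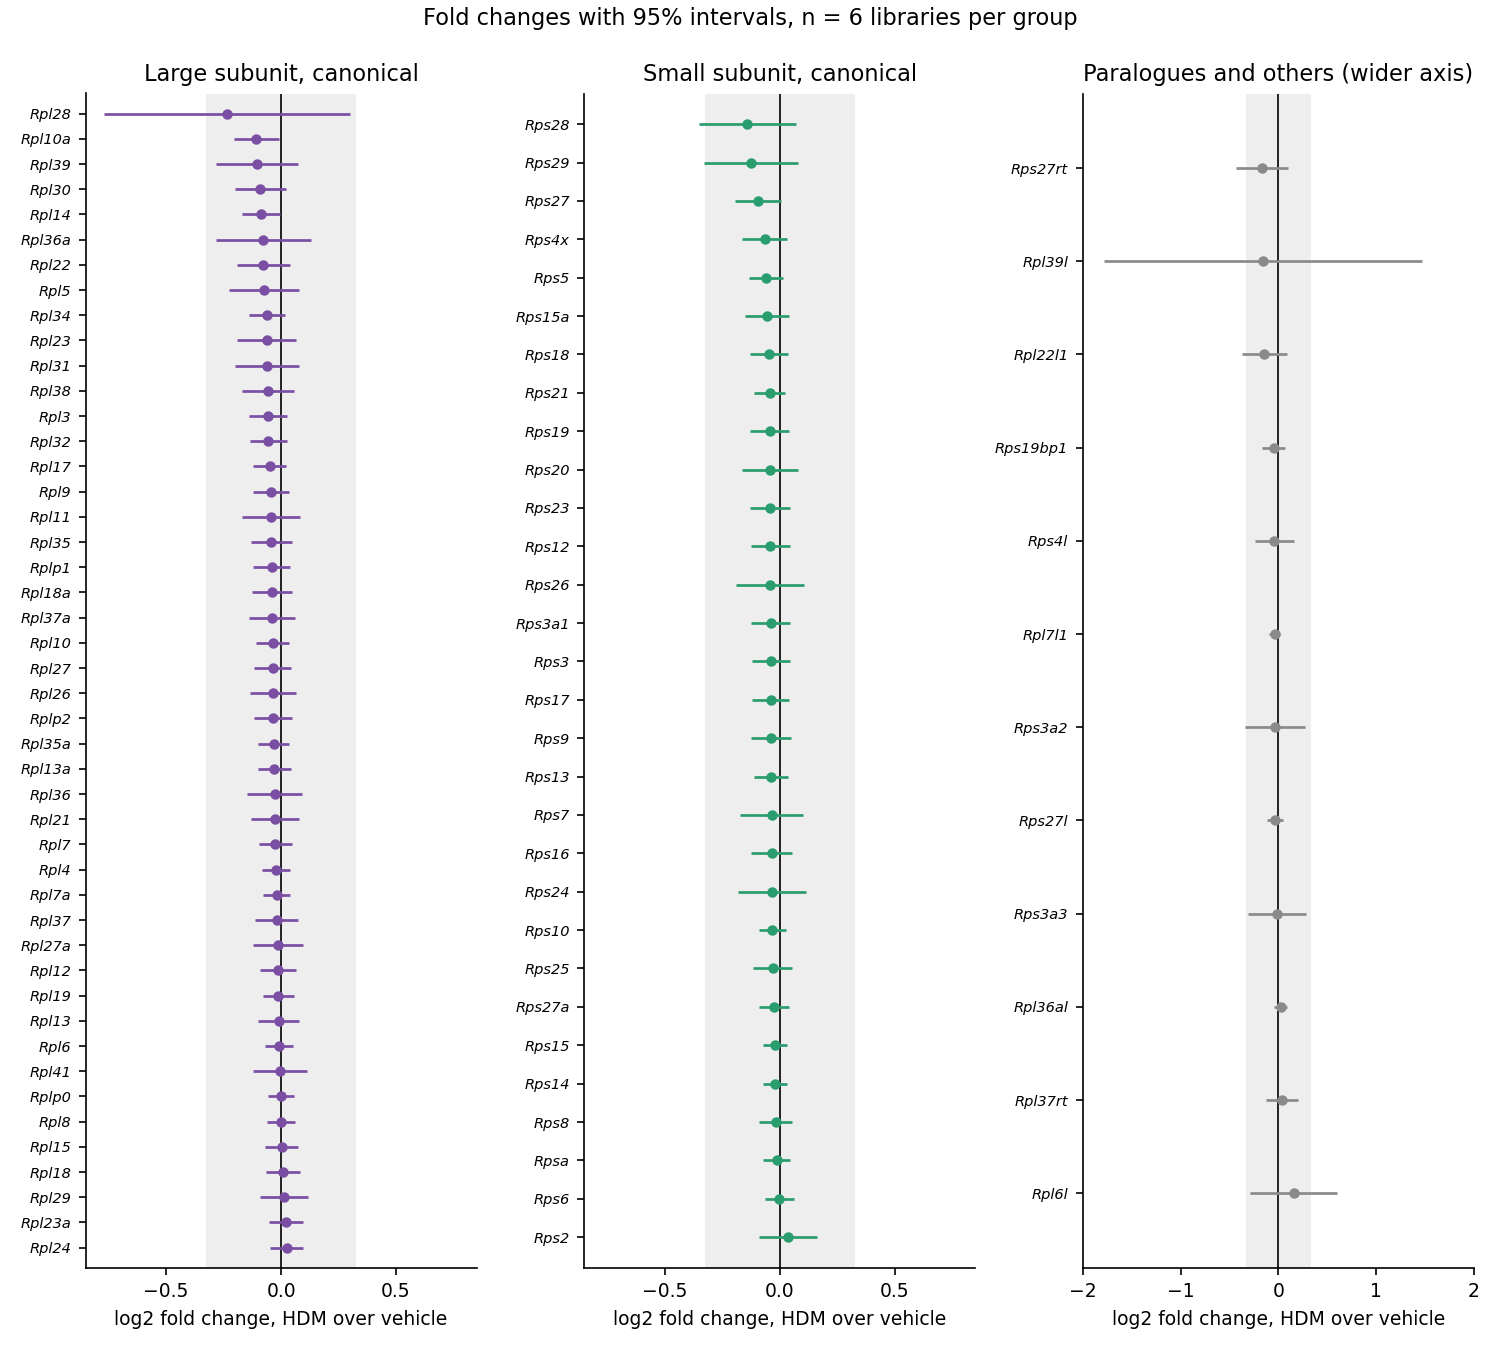
Log2 fold change of HDM over vehicle (point) with its 95% interval (line) for 88 of the 89 tested members, in edgeR's fit with n = 6 libraries per group. The grey band marks 1.25-fold in either direction, and the right panel has a wider axis. Most canonical genes lie a little left of 0 with intervals inside the band, and Rpl28, with 236 reads, has the widest interval among them.

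Of the stalk and reference genes described here, Rplp0 lay closest to 0, and the others lay near the members' median of -0.038. Rplp0, the base of the stalk, ranged from 1079 to 1108 CPM with HDM (median 1084) and from 1066 to 1111 with vehicle (median 1090). The HDM libraries all lay inside the vehicle range, and the log2 fold change was 0.00017 ± 0.026 (SE; edgeR adjusted p = 1.00). Its partners Rplp1 and Rplp2 had log2 fold changes of -0.040 and -0.034. Rpl13a, which in interferon-treated monocytes leaves the ribosome to silence inflammatory mRNAs, ranged from 446 to 503 CPM with HDM and 479.6 to 506 with vehicle, a log2 fold change of -0.030 ± 0.033. Rps18, another common reference gene, ranged from 343 to 375 CPM with HDM and from 352 to 387 with vehicle, with a log2 fold change of -0.046 ± 0.038. Both overlapped widely between the groups and neither was called.

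Rps6, the substrate of the S6 kinases, ranged from 209 to 223 CPM with HDM (median 212) and from 203 to 221 with vehicle (median 214). Its log2 fold change was -0.00094 ± 0.029 (edgeR adjusted p = 1.00), with an interval of -0.06 to 0.06, and HDM 6 was the highest library of all 12. Rpsa, which is also known as a laminin receptor, had a log2 fold change of -0.01 ± 0.027 and ranged from 937 to 991 CPM over both groups. Rpl4, a protein that lines the exit tunnel, had the highest CPM and a log2 fold change of -0.02 ± 0.028.

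**Figure D3:**
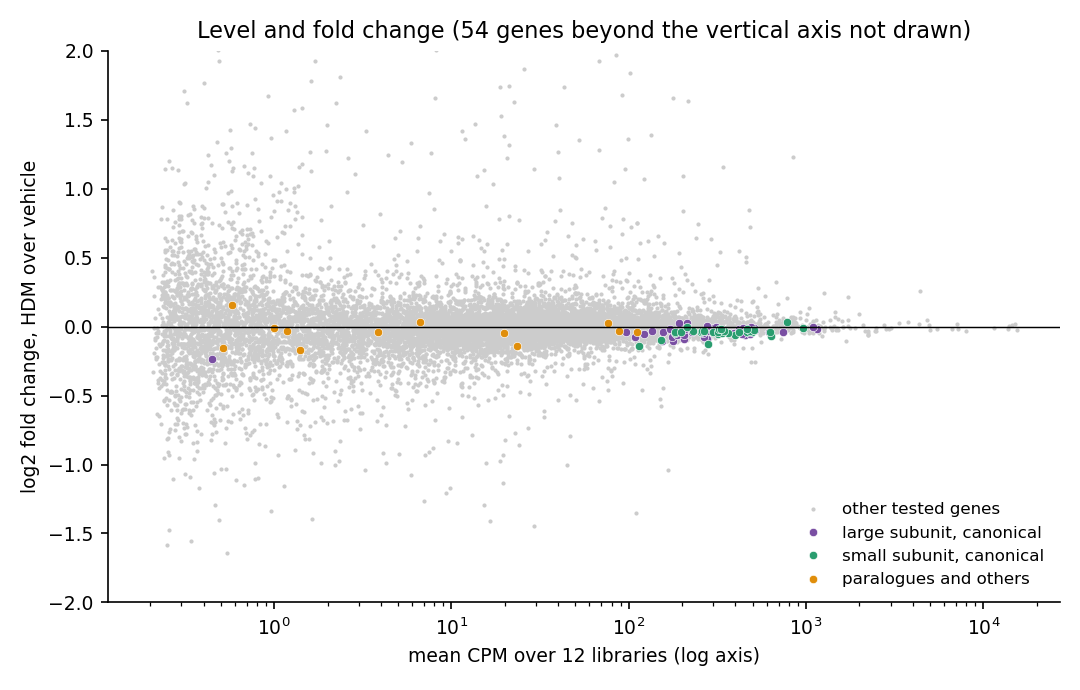
Mean CPM over the 12 libraries (log axis) against the log2 fold change of HDM over vehicle. Grey dots are other tested genes, with 54 genes beyond 2 on the log2 scale not drawn, and coloured dots are 88 of the 89 tested members. The canonical genes other than Rpl28 form a narrow band of up to 1151 CPM just under 0, and most paralogues lie at lower levels, with Rpl7l1 (111.5 CPM), Rps27l (87.9 CPM) and Rpl36al (76.4 CPM) beside the lowest of the band.

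The lowest fold changes of canonical genes belonged to Rpl28, Rps28, Rps29, Rpl10a and Rpl39. Rpl10a, a protein of the L1 stalk through which spent tRNA leaves, ranged from 159 to 181 CPM with HDM (median 174) and from 167 to 199 with vehicle (median 186). It was lower with HDM in all 6 numbers, although the groups overlapped, and its log2 fold change was -0.11 ± 0.046 (edgeR adjusted p = 0.287). With the replicate number as a block it was called lower (log2 fold change -0.11, adjusted p = 0.00315), as was Rpl22l1 (-0.14, adjusted p = 0.0175). These were the 2 members called in that fit, which called 14.7% of all tested genes, 6.81% as lower. Rpl14, a large subunit protein, ranged from 255 to 276 CPM with HDM (median 267.5) and from 271 to 312 with vehicle (median 279), and the groups overlapped. Its log2 fold change was -0.09 ± 0.039 (edgeR adjusted p = 0.313, and 0.0957 with the block).

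Rps28 and Rps29, small subunit proteins with mRNAs of 271 and 390 bases, had their highest level by far in Vehicle 1. Rps28 ranged from 103 to 112 CPM with HDM (median 108) and from 104 to 166 with vehicle (median 112), and the highest vehicle library after Vehicle 1 (166) was at 116. Rps29 ranged from 256 to 275 CPM with HDM (median 267) and from 248 to 398 with vehicle (median 279.5), where Vehicle 1 stood at 398 and the next at 280.3. Apart from Vehicle 1 the ranges of the groups overlapped in both genes. In each of numbers 2 to 4 the vehicle library lay above the HDM library of that number, with Rps29 at 279.3 to 280.3 against 256 to 275 CPM and Rps28 at 112 to 116 against 107 to 111, and in numbers 5 and 6 Rps29 lay higher with HDM. The log2 fold changes were -0.14 ± 0.10 for Rps28 and -0.13 ± 0.09 for Rps29 (edgeR adjusted p = 0.673 and 0.728), and without Vehicle 1 they were -0.02 and -0.01. Rpl39, a small protein of the exit tunnel, ranged from 129 to 169 CPM with HDM and from 141 to 194 with vehicle, again highest in Vehicle 1, with a log2 fold change of -0.11 ± 0.08, or -0.04 without that library.

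The highest fold changes were small. Rps2, a protein near the entry of the mRNA channel, ranged from 733 to 854 CPM with HDM (median 783) and from 687 to 869 with vehicle (median 755), and its log2 fold change of 0.04 ± 0.06 was the highest of the canonical genes. Numbers 5 and 6 held its highest libraries in both groups, 854 and 839 CPM with HDM and 825 and 869 with vehicle. Rpl24 (0.02 ± 0.033), Rpl23a (0.02 ± 0.034) and Rpl29 (0.01 ± 0.048) were also among the 5 highest, none of them called.

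The paralogues were less abundant than their parent genes and none was called without the block. Rpl22l1, the paralogue of Rpl22, ranged from 19.3 to 25.3 CPM with HDM (median 22.7) and from 19.9 to 28.9 with vehicle (median 25.2). It was lower with HDM in all 6 numbers, yet numbers 5 and 6 lay near 20 in both groups (19.3 to 20.04 CPM), and the log2 fold change was -0.14 ± 0.11 (edgeR adjusted p = 0.721). Rps27l, a p53 target, had 86.9 ± 4.04 CPM with HDM and 89.0 ± 3.33 with vehicle (SD, n = 6), and Rpl7l1 110.0 ± 3.52 and 113.0 ± 1.44. Rpl36al, a retrogene of Rpl36a, stood at 77.1 ± 2.89 and 75.7 ± 1.97 CPM. Rps4l had 3.81 ± 0.415 and 3.94 ± 0.404 CPM, and Rps19bp1 19.5 ± 1.70 and 20.1 ± 0.579. The muscle form Rpl3l had 42 reads in all, and Rpl10l, the testis retrogene, had 0 reads in the 12 libraries.

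Rpl39l, the male germ cell paralogue of Rpl39, split by library number and not by treatment. In numbers 1 and 2 it reached 0.0582 and 0.0488 CPM with HDM, while numbers 3 to 6 lay between 0.579 and 0.809. With vehicle, numbers 1 and 2 reached 0.105 and 0.0633 CPM, while the remaining 4 lay between 0.449 and 1.04. Numbers 1 and 2 were thus the lowest libraries of both groups. The gene had 218 reads in all, and its log2 fold change of -0.16 ± 0.75 (edgeR adjusted p = 1.00) says little about HDM.

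The lean of the members below 0 was seen in the libraries numbered 1 to 4 and not in numbers 5 and 6. In those 8 libraries the median log2 fold change of the members was -0.066, and edgeR called Rps4x and Rpl10a lower, 2 of 89 members beside 7.88% of all tested genes (2.88% as lower). With the block, 12 members were called, all of them lower: Rps4x, Rpl39, Rpl10a, Rpl30, Rps29, Rpl14, Rps15a, Rpl32, Rps27, Rps3a1, Rpl22l1 and Rpl35. The same fit called 12.8% of all tested genes in either direction and 4.82% as lower. Without number 1, in numbers 2 to 4, the same fit called 3 of 89 lower (Rps4x, Rpl10a and Rpl30) beside 9.57% of all tested genes, 3% as lower. In numbers 5 and 6 the members' median was 0.034, and Rps29 alone was called, as higher (log2 fold change 0.12, edgeR adjusted p = 0.0232), beside 8.47% of all tested genes, 4.25% as higher.

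Rps4x, an X-linked small subunit gene, is the clearest case of this pattern and no typical member. It had the smallest p of the 89 members in edgeR's test of the difference between the 2 sets of numbers. In numbers 1 to 4 it stood at 626, 623, 628 and 596 CPM with HDM and at 689, 670.3, 679 and 656 with vehicle. In numbers 5 and 6 it stood at 611 and 614 CPM with HDM and at 588 and 587 with vehicle. HDM lay below vehicle in each of the first 4 numbers and above it in the other two. Its log2 fold change was -0.12 in numbers 1 to 4 (adjusted p = 0.0335 in edgeR, 0.00592 with the block) and 0.06 in numbers 5 and 6 (adjusted p = 0.281). The 2 effects differed by 0.18 ± 0.043 (SE), with an adjusted p of 0.0678 in edgeR's test of the difference over all genes. Rps3a1, another small subunit gene, gave 0.20 ± 0.046 with an adjusted p of 0.0707.

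No member passed that edgeR test of the difference at an adjusted p under 0.05, which called 0.473% of all tested genes. At an unadjusted p under 0.05 it found 37 of 89 members (41.6%) beside 9.14% of all tested genes, and without number 1 it found 24 of 89 (27.0%) beside 8.96%. The difference lay above 0 in 76 of 89 members, with a median of 0.097 beside -0.0059 for all tested genes, and without number 1 in 74 of 89, with a median of 0.08. The labels give no meaning to the numbers, so what sets these libraries apart cannot be named. The split between 4 and 5 was drawn from these same data, and the members deviate together across libraries. The p-values and counts of members given here therefore describe the split and do not test it. Rpl10a differed least among the members called in numbers 1 to 4, with log2 fold changes of -0.12 there and -0.07 in numbers 5 and 6. The windows at its 2 annotated starts hold no pyrimidine run of 8 bases (the longest is 7). The windows of Rps4x and Rps3a1 hold runs of 4 and 2 at most, while Rpl14 and Rps27 have runs of 14 and 9. Rpl35, Rpl22l1, Rps15a and Rpl39 have runs of 18, 10, 9 and 8. Whether the run goes with the effect by number was not tested. A window without a run of 8 does not place its gene outside the TOP class.

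**Figure D4:**
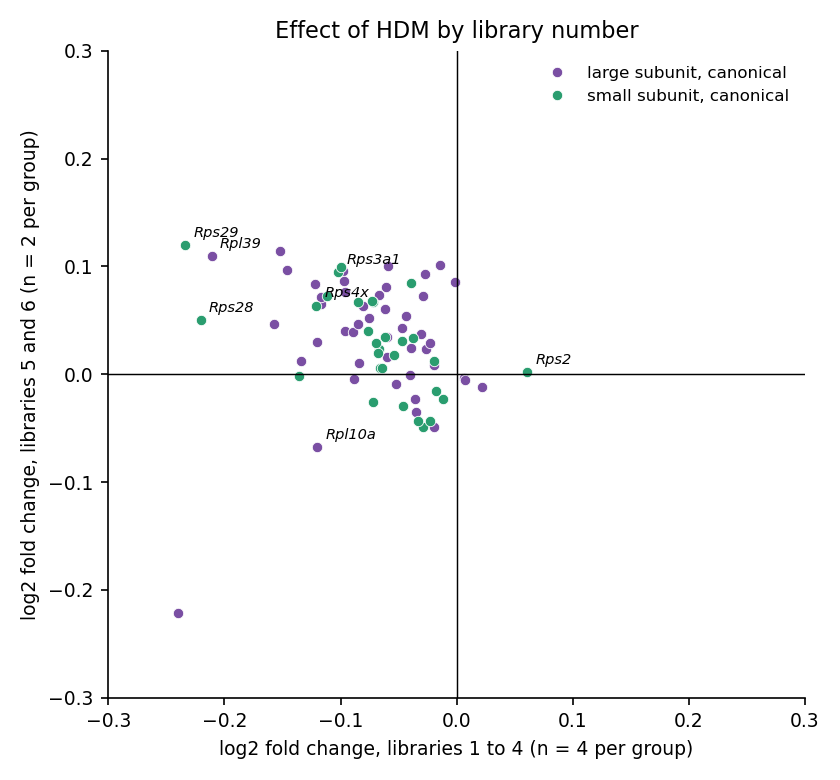
Each point is 1 of 76 of the 77 canonical genes. The horizontal axis gives its log2 fold change in libraries 1 to 4 (n = 4 per group) and the vertical axis that in libraries 5 and 6 (n = 2 per group), which share no library. Most points lie left of 0 and above 0, Rpl10a lies below 0 on both axes, and the point at the lower left is Rpl28 (-0.24 and -0.22).

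Canonical genes deviated together across libraries. After subtraction of the group means, the median correlation of log2 CPM between pairs of the 77 genes was 0.343 over 12 libraries, beside 0.0317 for 79 mitochondrial ribosomal protein genes. Without Vehicle 1 these were 0.290 and 0.0402. The mitochondrial list is counted at lower levels, with a sum of 2178 to 2270 CPM per library. The 46 large subunit genes alone summed to 14923 to 16223 CPM, and the part of level in the 2 correlations was not tested. The points share library, depth and scaling, so this is a description. Rpl37a followed the mean of the other canonical genes most closely (r = 0.967, and 0.986 without Vehicle 1). Rps2 went against it (r = -0.715, and -0.544 without Vehicle 1), as did Rplp0 (-0.586 and -0.339).

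Vehicle 1 was the highest of the 12 libraries for 46 of the 77 canonical genes, and Vehicle 6 the lowest for 18. HDM 1 to HDM 6 were the lowest for 15, 9, 4, 10, 4 and 7 genes. Vehicle 1 to Vehicle 5 were the lowest for 4, 0, 0, 0 and 6. The median canonical gene lay 0.09 above the vehicle mean (log2 CPM) in Vehicle 1 and 0.066 and 0.067 below it in Vehicle 5 and Vehicle 6. In the HDM libraries the medians were -0.014 to -0.062, within the span of the vehicle libraries. In Vehicle 1 the median was 0.10 for the 25 canonical genes with the shortest transcripts (271 to 577 bases) and 0.06 for the 25 with the longest (878 to 3706 bases), and the part of transcript length in the values of this library was not tested. The median coefficient of variation of the canonical genes was 3.29% with HDM and 5.07% with vehicle, or 4.20% without Vehicle 1. It was 2.88% in HDM 1 to 4 and 2.64% in Vehicle 2 to 4. These sets hold unlike numbers, as Vehicle 1 was left out and HDM 1 was kept, so they do not compare the spread of the groups.

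**Figure D5:**
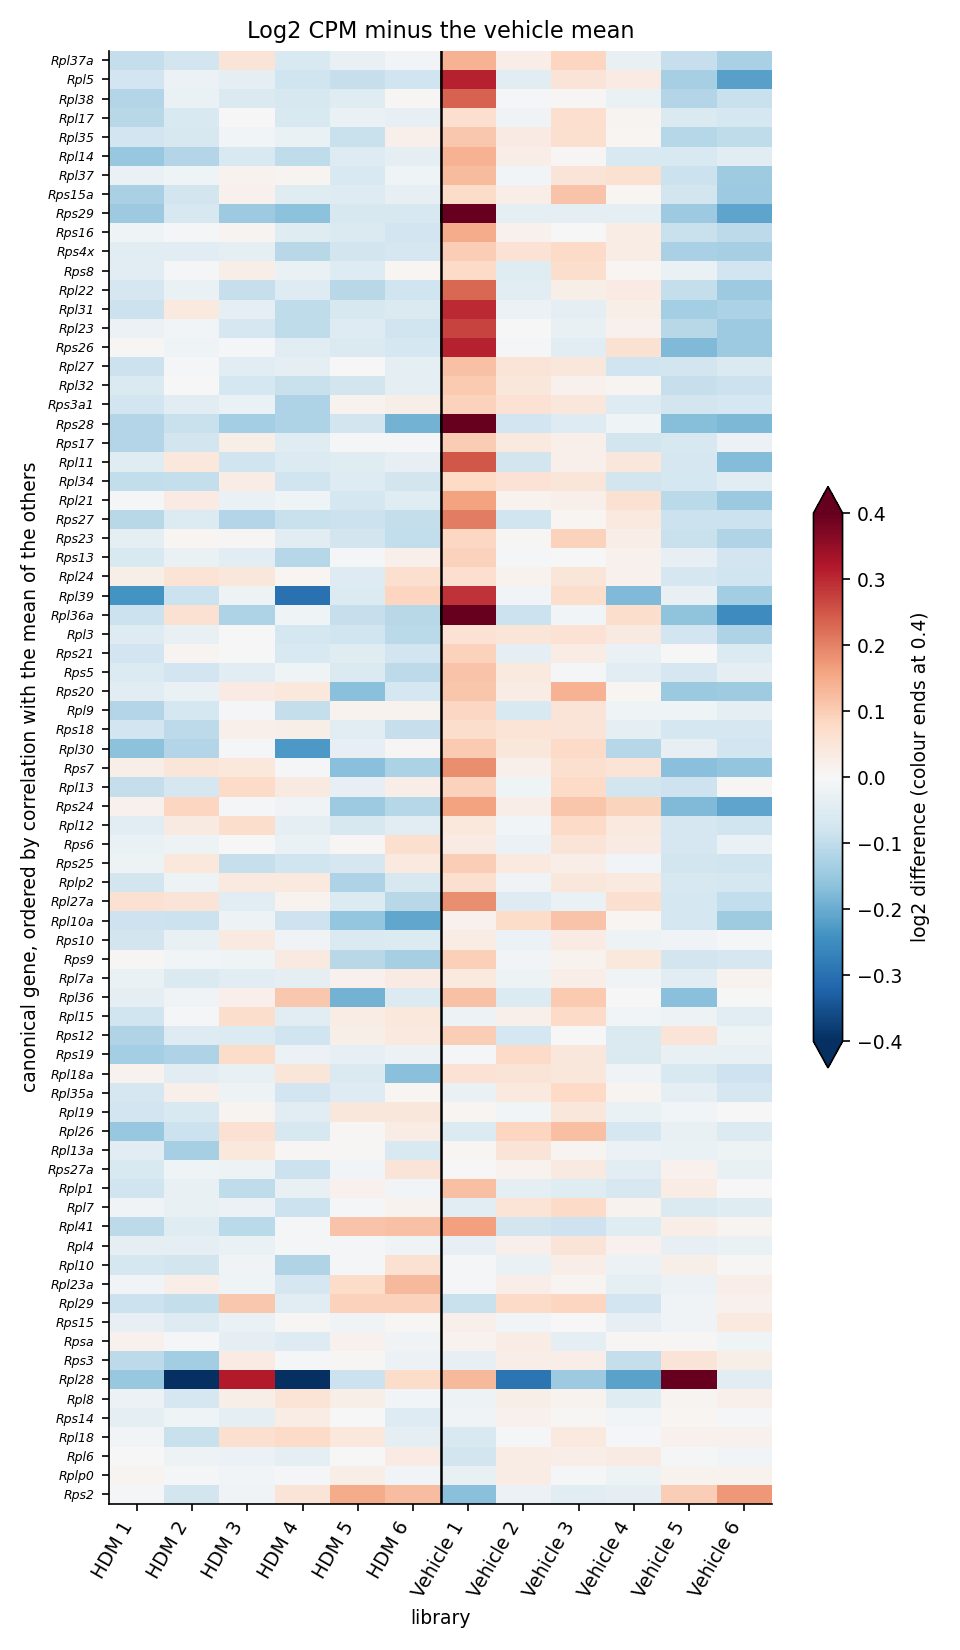
Log2 CPM minus the vehicle mean for 76 of the 77 canonical genes (rows, ordered from the highest to the lowest correlation with the mean of the others) in the 12 libraries (columns, HDM left of the black line). Red is higher and blue is lower, and the colour ends at 0.4. Vehicle 1 is the highest column for 46 genes, Vehicle 5 and Vehicle 6 are blue for most, and Rps2 at the bottom shows the opposite order.

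Ribosomal proteins outside the symbol rule gave values like those of the members. Fau, a fusion of a ubiquitin-like protein with a small subunit protein, had a log2 fold change of -0.02 ± 0.032, and Rack1, the signalling scaffold on the small subunit, -0.037 ± 0.027. Neither was called by edgeR, with or without the block, by DESeq2 or by limma-voom, and neither had an unadjusted p under 0.05 in edgeR.

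Among 25 translation factors and other TOP transcripts, 2 were called, both lower (8%, beside 5.37% of all tested genes, 2.47% as lower). Both were TOP-class host transcripts of small nucleolar RNAs. Snhg1 ranged from 10.7 to 13.6 CPM with HDM and from 13.8 to 16.9 with vehicle, without overlap (log2 fold change -0.37 ± 0.07, edgeR adjusted p = 0.00421). Snhg12 overlapped in part, from 5.88 to 7.95 and from 7.48 to 10.3 CPM (-0.39 ± 0.10, edgeR adjusted p = 0.0349). Leaving out HDM 1, 2, 5 or 6 or Vehicle 1, 2, 3 or 4, each alone, ended its call (adjusted p = 0.0614 to 0.0879) at log2 fold changes of -0.39 to -0.33, and the block kept it (adjusted p = 0.000253). Eif4b, a helicase cofactor, and Naca, which meets nascent chains, were called lower with the block (adjusted p = 0.00736 and 0.0150) at log2 fold changes of -0.09 each, and not without it.

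Of 15 genes for RNA polymerase I and its factors, 1 was called (6.67%, near the 5.37% of all tested genes): Taf1c, a subunit of the promoter selectivity factor of rRNA genes, ranged from 9.18 to 11.6 CPM with HDM and from 12.1 to 13.8 with vehicle. The groups did not overlap, and the log2 fold change was -0.27 ± 0.07 (edgeR adjusted p = 0.0340). Leaving out HDM 1, 2 or 6 or any vehicle library but number 5 ended the call (adjusted p = 0.0517 to 0.0841) at log2 fold changes of -0.28 to -0.23, and the block kept it (adjusted p = 0.00144). Of 69 ribosome assembly genes, 2 were called, both lower (2.90%, beside 5.37% of all tested genes, 2.47% as lower). Gnl3, a nucleolar GTPase known as nucleostemin, ranged from 67.3 to 75.1 CPM with HDM and from 83.8 to 96.0 with vehicle, without overlap. Its log2 fold change was -0.36 ± 0.038 (edgeR adjusted p = 5.16e-05). Ddx56, a nucleolar helicase, had a log2 fold change of -0.12 ± 0.030 (edgeR adjusted p = 0.0317). Leaving out any HDM library but number 4, or Vehicle 1, 2, 3 or 4, ended that call (adjusted p = 0.0541 to 0.0961) at log2 fold changes of -0.13 to -0.11. It was kept with the block (adjusted p = 0.00755) and in DESeq2 (0.00878).

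Of 27 tested genes of the S6 kinases and of mTOR control, 1 was called, as lower (3.70%, beside 5.37% of all tested genes). Mlst8, a subunit of both mTOR complexes, ranged from 13.6 to 18.1 CPM with HDM and from 19.0 to 21.1 with vehicle, without overlap (log2 fold change -0.33 ± 0.06, edgeR adjusted p = 0.00687). Eif4ebp1, a 4E-binding protein, had -0.15 ± 0.049 (adjusted p = 0.133 in edgeR and 0.00503 with the block), and Ddit4, an inhibitor of mTOR complex 1, 0.40 ± 0.14 (adjusted p = 0.147 and 0.0335). The median log2 fold changes were -0.032 for the TOP list, -0.036 for RNA polymerase I, -0.02 for assembly and -0.0012 for the S6 kinase and mTOR list. Of 79 tested mitochondrial ribosomal protein genes, edgeR called 0, as did DESeq2 and limma-voom. At an unadjusted p under 0.05 edgeR found 10 of the 79, beside 14% of all tested genes. With the block it called 1 higher and 5 lower, beside 14.7% of all tested genes.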

How the data were processed

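Per the labels' protocols, total RNA of bone marrow-derived macrophages was made into stranded mRNA libraries. The authors deposited raw counts per gene symbol, not scaled, in 1 table of 50559 rows and 12 columns, matched to samples by library name. STAR 2.6.0c, featureCounts 2.0.6 with Subread, cutadapt 4.5, Trim Galore 0.6.10 and FastQC 0.12.1 are named, per the submitters' processing notes, as are the builds GRCm38 and mm39, without a role for any, so no gene coordinates from the counting are printed. Neither the strand setting nor the annotation is given in the sources used.

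Counts were tested two-sided in R 4.3.3 by the quasi-likelihood method of edgeR 4.0.16 (limma 3.58.1 for voom), with TMM factors, filterByExpr, and group as the only term. It kept 13530 genes, 89 of them members, with Benjamini-Hochberg adjustment over all of them and calls at an adjusted p under 0.05. SE is the log2 fold change over the square root of F. CPM use TMM factors. The script was tested on simulated data. Alternatives were DESeq2 1.42.0, limma-voom, other factors, no filter, the replicate block, the numbers 5 and 6 apart, and each library left out. Fits on numbers 1 to 4 or 2 to 4 with the block, and the test of the difference between numbers, were added after seeing the data.

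Libraries of equal number deviated together across genes (r = 0.367 to 0.672), each above 0.1. On these data, and not on the labels, equal numbers were treated as pairs in the fits with the block. Statements that HDM lay below or above vehicle in given numbers use the same matching and are descriptions only. No correlations for unequal numbers are given, and numbers 5 and 6 stand apart in both treatments, so the correlations do not establish pairs. Lengths are those of APPRIS principal transcripts in GENCODE vM21, found for 86 of 94 members. Promoters are RefSeq's. Genes named are every called member, the 5 canonical genes with the highest and the 5 with the lowest fold change, the 5 members with the highest CPM, a set of members named by role, and up to 4 genes of each pathway list with the smallest p. Rps4x, Rps3a1, Rpl14 and other members called in part of the libraries were named after their values were seen. The members and lists were chosen with earlier results of these data known. Some genes that this rule picks are not reported here, and the figures omit 1 canonical gene, though the counts include them.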

Additional observations from a re-analysis of the deposited data

Results flagged for a closer look

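Among the named members and the share of reads, 52 groups of 6 libraries were checked for 1 library far from the others, and chance alone flags about 1 in 20 such groups. Rps28 in Vehicle 1 lay at 166 CPM with the nearest vehicle library at 116, a gap of 0.801 of the group's range. Rps29 in the same library lay at 398 CPM with the nearest at 280.3, a gap of 0.785 of the range. Rps6 in HDM 6 lay at 223 CPM with the nearest at 214, a gap of 0.663 of the range.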

How the results depend on the processing

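Without the block, no alternative over all 12 libraries (DESeq2, limma-voom, upper-quartile factors, total library size, TMM without the members, no filter) and no omission of 1 library called a member. Members' median log2 fold changes ranged from -0.048 to -0.021 and the share difference from -0.128 to -0.0650 points when each library was left out, and calls over all genes from 561 to 694. With the replicate block 2 members were called, and 1990 genes in all, with 5 in the TOP list, 3 for RNA polymerase I, 10 for assembly, 5 for S6 kinases and mTOR and 6 mitochondrial ribosomal proteins. In numbers 1 to 4 the counts were 2 members and 3 in the mTOR list, and with the block 12 members, 1741 genes in all, 6 TOP, 10 assembly, 6 mTOR and 4 mitochondrial. In numbers 2 to 4 with the block they were 3 members, 1312 genes in all, 4 assembly, 4 mTOR and 1 mitochondrial. In numbers 5 and 6 they were 1 member (Rps29, at 0.12, against its direction over all libraries), 1139 genes, 1 TOP, 2 RNA polymerase I and 2 mitochondrial, with a member median of 0.034 and a share difference of 0.0075 points. Without the filter 0 RNA polymerase I and 1 assembly gene were called, and with total library size 1 mitochondrial. Leaving out 1 library gave 1 to 2 TOP, 0 to 1 RNA polymerase I and 1 to 2 assembly genes. The cause was not tested. Depth limits Rpl28, Rpl39l and the other members under 1 CPM.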
